A study of Mus musculus with 9 samples.

Results

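The 9 genes described here encode RNA-binding proteins tied to motor neuron disease: Tardbp, Ewsr1, Taf15, Hnrnpa1, Hnrnpa2b1, Matr3, Tia1, Smn1 and Atxn2. They were followed through every probe set that the annotation of the array, an Affymetrix mouse genome array, assigns to one of these symbols alone. That rule gave 34 of the 45037 probe sets that are not controls, and 31 of the 34 were bright enough to be tested among 27022 in all (a mean log2 signal over the 3 groups above the 40th percentile). Tardbp had 5 probe sets, Ewsr1 3, Taf15 2, Hnrnpa1 3, Hnrnpa2b1 4, Matr3 4, Tia1 6, Smn1 1 and Atxn2 6. A further 3 probe sets that name Hnrnpa1 together with other genes were left out by the rule.

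Proteins of this kind bind transcripts from splicing in the nucleus to transport, storage and translation in the cytoplasm. TDP-43, the product of Tardbp, leaves the nucleus and aggregates in the motor neurons of most patients with amyotrophic lateral sclerosis, whereas disease caused by SOD1 mutations is generally known for lacking that pathology. Mutations in Tardbp, Hnrnpa1, Hnrnpa2b1, Matr3, Tia1, Ewsr1 or Taf15, and expanded repeats in Atxn2, have been linked to inherited or sporadic motor neuron disease, and loss of SMN1 causes spinal muscular atrophy in humans.

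The 9 arrays form 3 groups of 3, and all came from mice. One group is total spinal cord of wild-type mice, another is motor neurons taken by laser capture from wild-type mice, and the last is motor neurons captured from mice with mutant SOD1. The source field of every sample reads ventral spinal cord, although the cord samples are described as total cord. All titles carry the code D28, which they do not explain. The labels used here name neither the SOD1 allele nor, in words, the age of the mice, the number of cells or any pooling of animals. Cord of mutant mice was not analysed here. The labels number the samples of a group without saying that they came from separate animals, so p-values measure the spread between arrays, which may be technical.

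Values are signal intensities that the authors had scaled to a common trimmed mean. On that scale the median probe set read 556 to 582 in cord, 269 to 313 in the wild-type motor neurons and 274 to 366 in mutant motor neurons. Background, the 95th percentile of 27 bacterial control probe sets on each array, lay between 131 and 244. All of the 7 motor neuron markers were above background on every array, with a summed signal of 13613 to 20372 in cord, 178341 to 193551 in wild-type and 161936 to 166901 in mutant motor neurons, and 6 of them passed the test as higher in the wild-type motor neurons than in cord. Chat, the enzyme that makes acetylcholine, was the seventh, with 397 to 441 in cord and 496 to 830 in the wild-type motor neurons (adjusted p = 0.0816). The oligodendrocyte list was lower in the wild-type motor neurons for 6 of 6 genes (3 lower and 1 higher after centring each array on its median) but not absent, with a summed signal of 559850 to 669088 in cord, 262921 to 280596 in wild-type and 298216 to 327500 in mutant motor neurons. Signal also shifted towards the 3′ ends of transcripts: the log2 ratio of the 3′ to the 5′ Gapdh control probe set was -0.277 ± 0.0142 in cord, 4.03 ± 0.444 in wild-type and 4.49 ± 0.15 in mutant motor neurons (SD, n = 3 each).

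Against cord, 29 of the 31 tested probe sets of these genes passed the test in the wild-type motor neurons (limma, two-sided, Benjamini-Hochberg adjusted p below 0.05 over all 27022 probe sets). In this comparison 65.5% of all tested probe sets were called, so that a call by itself says little about the members. The mean log2 signal in wild-type motor neurons was under the brightness limit for 3 of the 31, 1 each of Hnrnpa1, Tia1 and Smn1, which were tested because other groups were brighter. Of the 29, 8 were higher and 21 lower in motor neurons, beside 24% and 41.5% of all probe sets. The median log2 change was -0.84 for the members and -0.35 for all probe sets. The arrays of both groups did not overlap for 28 member probe sets (71.9% of all). Fewer cells of a type and less RNA per cell cannot be told apart in such samples, and the part of the 3′ shift and of the remaining glial RNA in each result was not tested.

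Probe sets of one gene often differed in direction. Tardbp, Ewsr1, Hnrnpa1, Matr3 and Atxn2 each had probe sets called in both directions, while all called probe sets of Taf15, Hnrnpa2b1, Tia1 and Smn1 were lower in motor neurons. Of 7 members with at least 2 called probe sets, 5 had calls both ways, beside 1291 of 3722 such genes on the array (34.7%). Since the scaling between arrays moves all changes together, each probe set was also tested with every array centred on its median log2 value, and with the arrays quantile normalized. The median change of all tested probe sets was -0.35 on the authors' scale, 0.56 after centring and 0.13 after quantile normalization. Under all 3 scalings, 6 member probe sets were called higher and 12 lower in the wild-type motor neurons, and 41.6% of all probe sets were called in one direction under all 3. Of 5 members with at least 2 such calls, 4 kept calls in both directions, beside 544 of 2060 genes (26.4%).

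**Figure D1:**
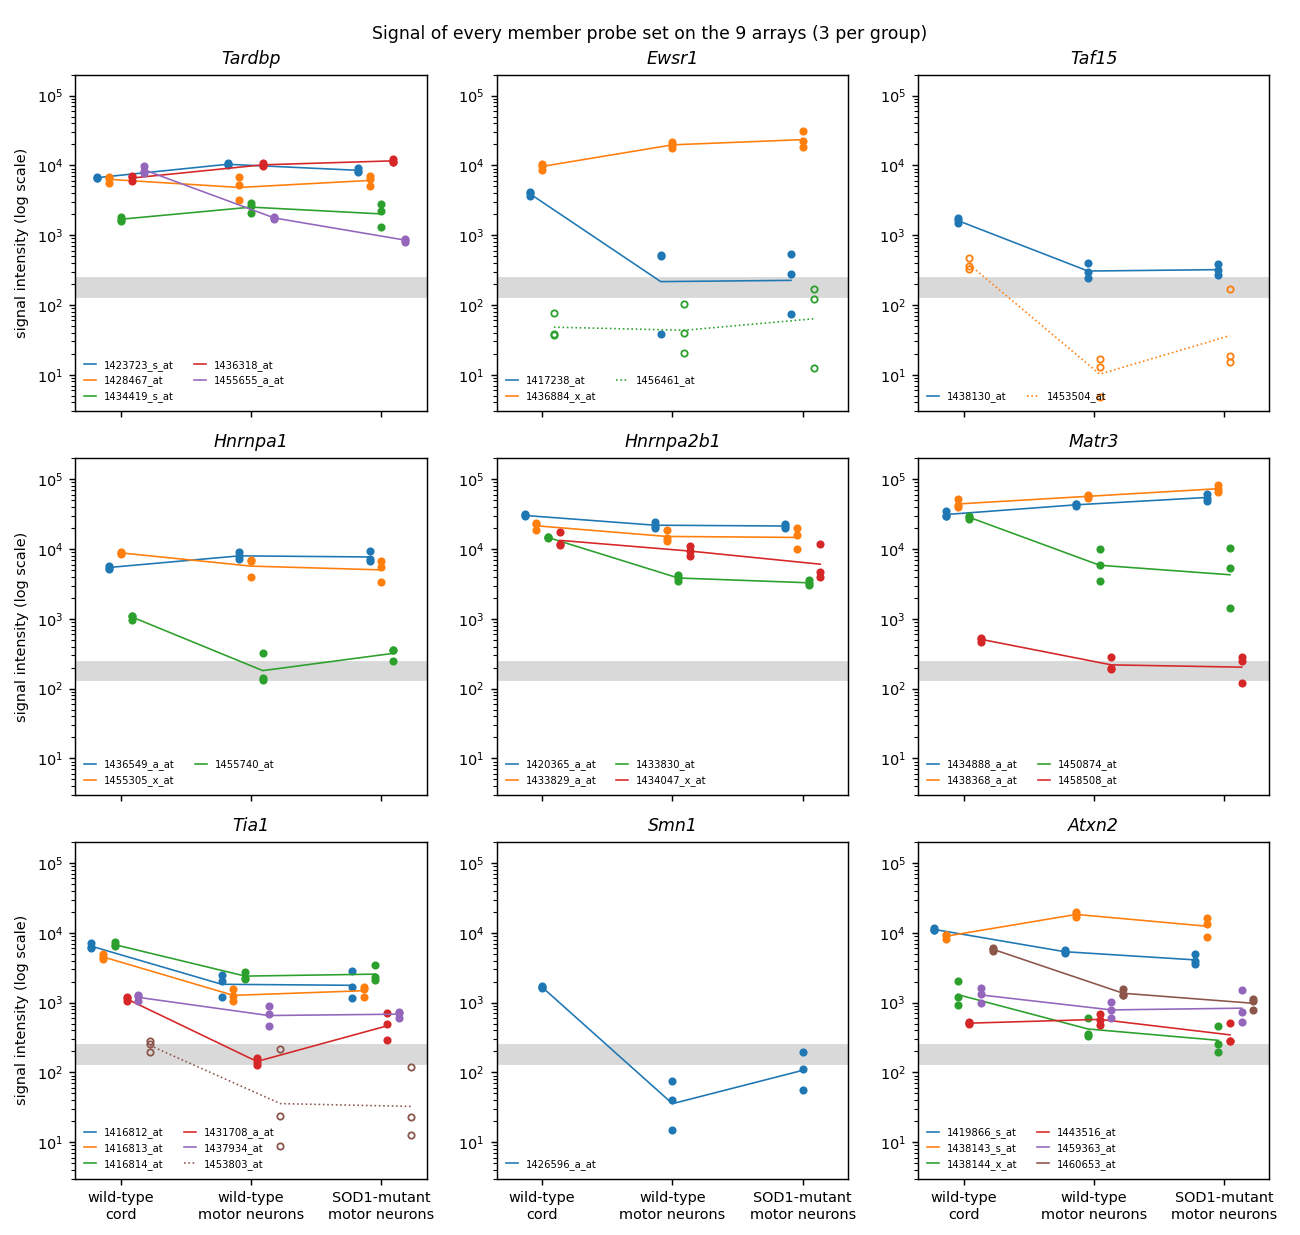
Signal intensity (log axis) of the 34 probe sets of the 9 genes on each array of the 3 groups. Points are arrays, lines join the geometric means of 3 arrays, open points with dotted lines mark the 3 probe sets too dim to be tested, and the grey band spans the background of the 9 arrays (131 to 244). Tardbp, Ewsr1, Hnrnpa1, Matr3 and Atxn2 have probe sets that run in opposite directions from cord to motor neurons.

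Tardbp had probe sets of both kinds. Its brightest probe set (the one of highest mean log2 signal), 1436318_at, read 5908, 7084 and 6838 in cord, 9631, 10912 and 10007 in the wild-type motor neurons, and 11201, 12345 and 11285 in mutant motor neurons. Every motor neuron array lay above every cord array, and the wild-type cells were 1.54-fold higher (log2 0.62 ± 0.104, SE; adjusted p = 7.33e-04). Probe set 1423723_s_at, whose suffix marks probes that match several transcripts, gave a nearly equal difference, with 6569, 6800 and 6641 in cord against 10001, 10664 and 10428 in the wild-type motor neurons (log2 0.63 ± 0.0829, adjusted p = 1.72e-04). A dimmer one, 1434419_s_at, went from 1796, 1671 and 1605 to 2925, 2105 and 2594 (log2 0.57 ± 0.16, adjusted p = 0.0121). All 3 were called higher in the wild-type motor neurons under each of the 3 scalings, but 1434419_s_at missed the threshold with all 9 arrays in 1 fit (adjusted p = 0.0686).

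The last of the Tardbp probe sets went the other way. Probe set 1455655_a_at read 9881, 8329 and 7692 in cord and 1810, 1683 and 1789 in the wild-type motor neurons, a signal 4.84-fold lower (log2 -2.27 ± 0.125, adjusted p = 1.14e-06). It was lower under all 3 scalings, and over 17 alternative settings its change stayed between -2.35 and -1.37. The remaining probe set, 1428467_at, read 5672, 6545 and 6741 in cord and 6798, 3150 and 5232 in the wild-type motor neurons, and these overlapped (log2 -0.38 ± 0.245, adjusted p = 0.197). Within an array, 1436318_at minus 1455655_a_at on the log2 scale was -0.74, -0.233 and -0.169 in cord, 2.4, 2.68 and 2.47 in wild-type and 3.67, 3.9 and 3.65 in mutant motor neurons. This difference does not depend on a factor common to the array, and the 3 groups did not overlap.

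The FET proteins Ewsr1 and Taf15 bind RNA and help assemble transcription and splicing complexes. For Ewsr1, 1436884_x_at read 9877, 8691 and 10441 in cord, 17959, 21809 and 19418 in the wild-type motor neurons, and 18378, 31202 and 22242 in mutant motor neurons. The wild-type cells were 2.04-fold higher (log2 1.03 ± 0.106, adjusted p = 3.96e-05), though the x in the suffix marks probes that may also bind other transcripts. The other tested Ewsr1 probe set, 1417238_at, fell from 3951, 3581 and 4097 in cord to 497, 38.4 and 527 in the wild-type motor neurons, where 1 array was below background (log2 -3.93 ± 0.749, adjusted p = 0.00161). Without that array, replicate 2, the log2 change was -2.87. Both changes held in direction and call under the 3 scalings. The remaining one, 1456461_at, was below background on all 9 arrays.

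For Taf15, 1438130_at read 1473, 1752 and 1646 in cord and 299, 243 and 394 in the wild-type motor neurons, a signal 5.02-fold lower (log2 -2.33 ± 0.247, adjusted p = 4.76e-05), called in all 3 scalings. Its second probe set, 1453504_at, was too dim to be tested, with 356, 325 and 468 in cord and readings below background on all 6 motor neuron arrays. With each array's background level in place of the unmeasured signal, it was at least 2.5-fold lower in wild-type and at least 1.9-fold lower in mutant motor neurons.

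Hnrnpa1 and Hnrnpa2b1 encode abundant nuclear proteins that coat new transcripts, regulate splice sites and shuttle to the cytoplasm. The brightest Hnrnpa1 probe set by mean log2 signal, 1436549_a_at, read 5260, 5379 and 5723 in cord and 9009, 7194 and 7874 in the wild-type motor neurons, 1.46-fold higher (log2 0.55 ± 0.109, adjusted p = 0.00205). Probe set 1455740_at read 1103, 1092 and 978 in cord and 321, 142 and 131 in the wild-type motor neurons, 5.3-fold lower (log2 -2.41 ± 0.367, adjusted p = 4.3e-04). Its readings of 142 and 131 lay at about the background of their arrays (139.9 and 130.96). Its mean log2 signal in that group (7.67) was under the brightness limit of 7.68, and it was tested because cord and the mutant were brighter. The calls of 1436549_a_at and 1455740_at held under the 3 scalings. The call of 1455305_x_at did not: it was lower on the authors' scale (log2 -0.63 ± 0.203, adjusted p = 0.023), missed the threshold when any 1 of the cord arrays was left out (adjusted p = 0.0518 to 0.067), and turned to 0.28 after centring. Without motor neuron replicate 2 it was -0.36.

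All 4 Hnrnpa2b1 probe sets were called lower in the wild-type motor neurons on the authors' scale, but 3 of them turned higher after centring. The brightest, 1420365_a_at, read 30288, 31341 and 29413 in cord and 20360, 24630 and 21180 in the wild-type motor neurons (log2 -0.46 ± 0.0886, adjusted p = 0.00161), against 0.44 after centring and -0.90 after quantile normalization. The exception was 1433830_at, with 14868, 14722 and 14416 in cord and 3521, 4197 and 3864 in the wild-type motor neurons. That 3.79-fold difference (log2 -1.92 ± 0.0965, adjusted p = 7.42e-07) was called in the same direction under all 3 scalings. A lower signal of Hnrnpa2b1 was thus called under every scaling at 1 of 4 probe sets. Of the others, 1433829_a_at (log2 -0.51) missed the threshold without cord replicate 3 (adjusted p = 0.0526) or motor neuron replicate 3 (adjusted p = 0.0592). The call of 1434047_x_at (log2 -0.51) was lost without cord replicate 2 or motor neuron replicate 1 or 3, at adjusted p of 0.0924 to 0.103, and its log2 change was -0.31 without that cord array.

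Matr3 encodes matrin 3, a nuclear matrix protein that binds RNA and DNA. Probe set 1438368_a_at read 39830, 51569 and 42297 in cord, 53391, 60322 and 57521 in wild-type and 72540, 82844 and 65487 in mutant motor neurons. Its difference between wild-type motor neurons and cord was small (log2 0.36 ± 0.104, adjusted p = 0.0132), missed the threshold without cord replicate 1 (log2 0.29, adjusted p = 0.0568) and was -0.12 after quantile normalization. Probe set 1434888_a_at gave similar values, at log2 0.46 ± 0.0863 on the authors' scale (adjusted p = 0.00144) and close to 0 after quantile normalization (-0.0087). Probe set 1450874_at fell from 27089, 29834 and 28496 to 9918, 3435 and 5920 (log2 -2.27 ± 0.312, adjusted p = 2.28e-04), in all 3 scalings. The dim 1458508_at went from 523, 468 and 538 to 197, 190 and 281 (log2 -1.14 ± 0.323, adjusted p = 0.0127), a call that did not hold after centring, nor without cord replicate 1 (adjusted p = 0.0526) or cord replicate 3 (adjusted p = 0.0585).

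Tia1 encodes a core protein of stress granules, and Atxn2 encodes ataxin-2, a regulator of poly(A)-binding protein and translation. All 5 tested Tia1 probe sets were lower in the wild-type motor neurons, and 4 of them under every scaling. Of these, 1431708_a_at had a mean log2 signal in that group (7.35) under the brightness limit of 7.68. The brightest, 1416814_at, read 6377, 7322 and 6613 in cord, 2186, 2775 and 2270 in wild-type and 3453, 2328 and 2078 in mutant motor neurons, 2.8-fold lower in the wild-type cells than in cord (log2 -1.49 ± 0.129, adjusted p = 1.39e-05). Probe sets 1416812_at and 1416813_at changed by -1.80 ± 0.237 and -1.81 ± 0.172 (SE). The exception among the 5 was 1437934_at, lower by the authors' scaling (log2 -0.84 ± 0.265, adjusted p = 0.0204) but at 0.064 after centring and 0.036 after quantile normalization. It also missed the threshold without cord replicate 2 (adjusted p = 0.0624) or cord replicate 3 (adjusted p = 0.0698). A sixth, 1453803_at, was dim and not tested.

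Atxn2 had calls in both directions among 6 probe sets. Its brightest probe set, 1438143_s_at, read 8076, 9383 and 9409 in cord and 19633, 18478 and 17018 in the wild-type motor neurons, 2.05-fold higher (log2 1.04 ± 0.0974, adjusted p = 2.29e-05). Probe set 1460653_at read 5479, 6061 and 5905 in cord and 1563, 1273 and 1266 in the wild-type motor neurons, 4.22-fold lower (log2 -2.08 ± 0.133, adjusted p = 2.54e-06). Both held under all 3 scalings, and within an array the log2 difference between them went from 0.558, 0.629 and 0.67 in cord to 3.63, 3.84 and 3.73. A further 3 Atxn2 probe sets were lower on the authors' scale but lost that call under another scaling, 1419866_s_at (log2 -1.06 ± 0.0888), 1438144_x_at (-1.59 ± 0.348) and 1459363_at (-0.70 ± 0.265). The last of these also missed the threshold without cord replicate 1 or 2, or motor neuron replicate 1 or 2, with adjusted p between 0.0657 and 0.161. Probe set 1443516_at did not pass on the authors' scale (log2 0.17, adjusted p = 0.567) and changed by 1.08 after centring and 1.04 after quantile normalization.

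Smn1 encodes the SMN protein, which loads Sm proteins onto small nuclear RNAs, and it had a single probe set. Probe set 1426596_a_at read 1597, 1674 and 1722 in cord, 74.8, 40.6 and 14.9 in the wild-type motor neurons, and 113, 55.7 and 195 in mutant motor neurons. All 3 wild-type motor neuron arrays and 2 of the 3 mutant ones were below background. Its signal was therefore at least 10.6-fold lower in the wild-type motor neurons than in cord (adjusted p = 1.62e-05), taking the background level of each motor neuron array in place of the unmeasured signal. The probe set lay closest to the brightness limit among those tested, with a mean log2 signal of 7.87 against a limit of 7.68. It was tested only because of its signal in cord (10.7), since both motor neuron groups were under the limit (5.88 and 7.02), so that a difference from cord was implied by the filter. Just outside the limit, 1453803_at of Tia1 had a mean of 6.66.

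**Figure D2:**
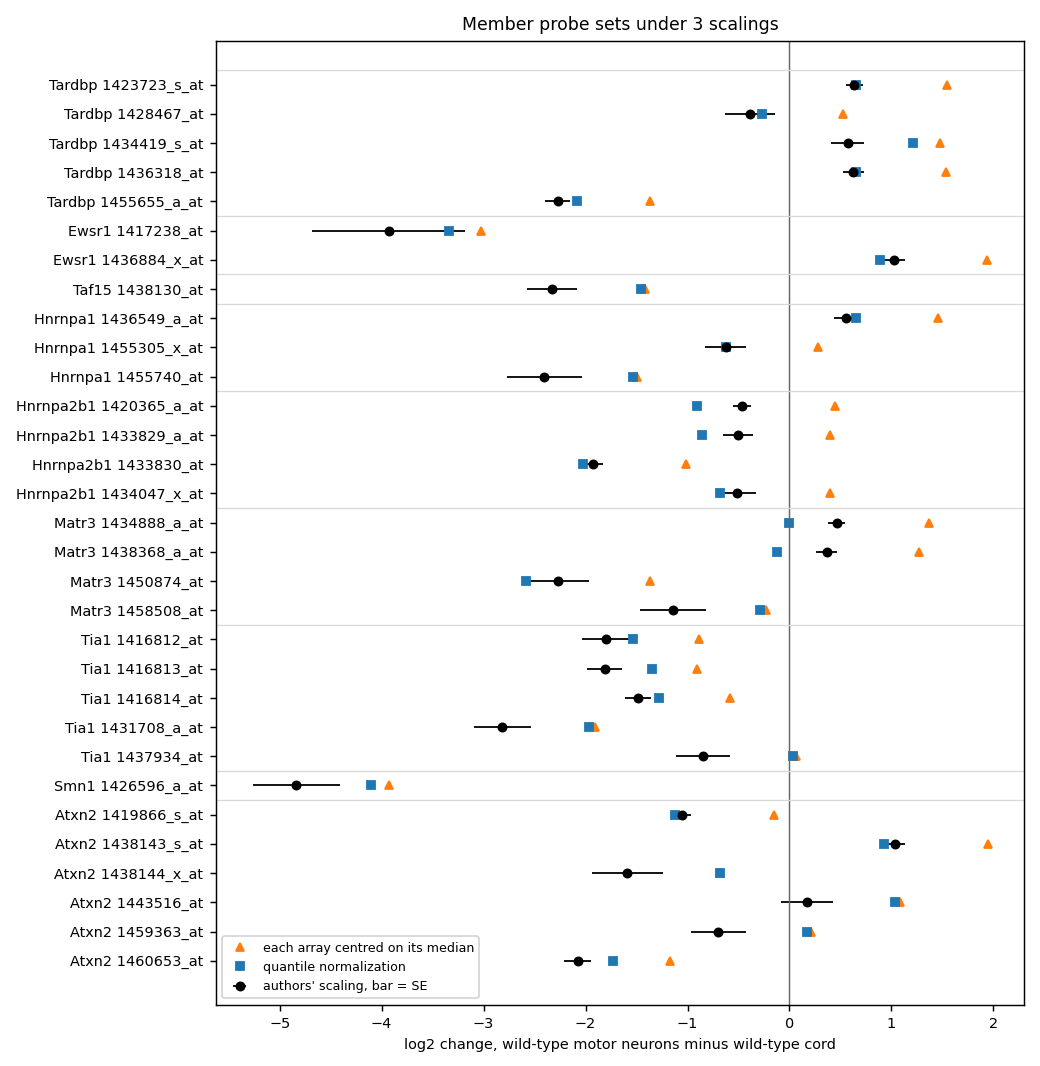
Log2 change of the 31 tested probe sets, wild-type motor neurons minus wild-type cord (x axis), on the authors' scale (black, bar = SE), with each array centred on its median log2 value (orange) and with quantile-normalized arrays (blue). Of these probe sets, 6 stayed higher and 12 lower in all 3 scalings, and centring turned 3 of the 4 Hnrnpa2b1 probe sets from lower to higher.

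Probe sets of one gene were also compared within arrays, where a factor common to the array drops out. For 22 pairs of a member's brightest probe set and another tested one, the log2 difference between wild-type motor neurons and cord did not overlap for 14 pairs, and ranged from -0.64 to 4.96 with a median of 1.25. Over all genes of the array, 68.5% of 10188 such pairs did not overlap, a share close to that of the members. The brightest probe set was picked on the mean of 3 groups that include both motor neuron groups. The sign of these differences, and so their median, is thus partly set by that choice. With 3 arrays against 3 the smallest two-sided exact permutation p is 0.1, which the 14 pairs reached, and none of the 66 tests made over the 3 comparisons can pass 0.05. The highest value, 4.96 for the pair of Ewsr1 probe sets, rests in part on a signal below background on 1 array (differences of 5.12, 8.54 and 5.15 in wild-type motor neurons). Next was 3.11 for 1438143_s_at and 1460653_at of Atxn2, which were above background on all arrays. By suffix, 12 of the 15 tested members with a plain suffix were called lower and 1 higher (42.4% and 20.6% of all such probe sets), whereas the 16 with a, s or x in the suffix held 7 of the 8 rises and 9 falls (34.2% higher and 38.8% lower over all).

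**Figure D3:**
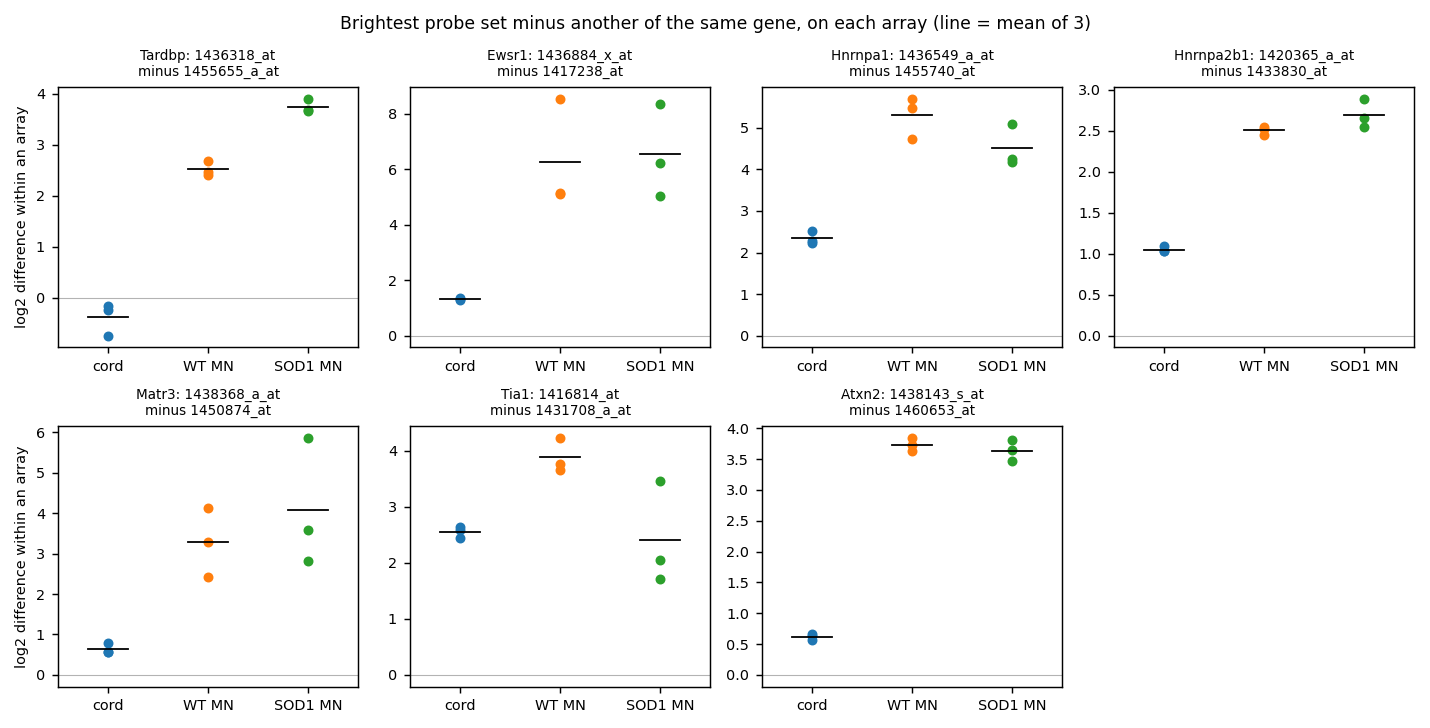
Log2 signal of the brightest probe set minus that of another probe set of the same gene on each array, for the 7 members with at least 2 tested probe sets, by group (MN, motor neurons). The other probe set is the one whose difference moved furthest from cord to wild-type motor neurons. Points are arrays and lines the means of 3. For Tardbp the 3 groups are separate, from -0.74 to -0.169 in cord, 2.4 to 2.68 in wild-type and 3.65 to 3.9 in mutant motor neurons.

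In mutant motor neurons against the same cord arrays, 25 of 31 member probe sets passed the test, 6 higher and 19 lower, beside 62.1% of all probe sets called, 21.9% higher and 40.2% lower. The 2 comparisons share the cord arrays and are not independent. The median log2 change was -1.13 for the members and -0.37 for all. Tardbp 1436318_at was 1.76-fold higher (log2 0.81 ± 0.115, adjusted p = 3.77e-04) and Tardbp 1455655_a_at 9.89-fold lower (log2 -3.31 ± 0.146, adjusted p = 1.57e-06). Ewsr1 1436884_x_at was 2.42-fold higher (log2 1.28 ± 0.188, adjusted p = 4.73e-04). Matr3 1438368_a_at was 1.65-fold higher (log2 0.73 ± 0.135, adjusted p = 0.0017), a call that quantile normalization removed (0.16).

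Among the falls, Taf15 1438130_at read 267, 388 and 317 and was 4.81-fold lower than cord (adjusted p = 6.58e-05). Hnrnpa2b1 1433830_at, at 3617, 3046 and 3225, was 4.44-fold lower (adjusted p = 2.44e-06). Smn1 read 113, 55.7 and 195, under every cord array, but only 1 of these 3 was above background and no fold is given. Atxn2 1438143_s_at did not pass here, with 16218, 8818 and 13449 against cord values of 8076, 9383 and 9409 (log2 0.48 ± 0.21, adjusted p = 0.0779), while Atxn2 1460653_at was 5.84-fold lower. Under all 3 scalings 4 member probe sets stayed higher and 12 lower, and 38.7% of all probe sets were called in one direction under all 3. The count of 6 higher fell to 4 without cord replicate 1 or 2, where Tardbp 1423723_s_at (adjusted p = 0.084 and 0.0636) and Hnrnpa1 1436549_a_at (adjusted p = 0.0575 and 0.0516) missed the threshold.

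The comparison of mutant with wild-type motor neurons asks whether the SOD1 mutation altered these genes in the captured cells. No member probe set passed the test (limma, adjusted over 27022 probe sets), and 60 probe sets on the array did (0.222%), 41 higher (0.152%) and 19 lower (0.0703%). The array-wide count fell to 11, 13 or 6, all higher, without wild-type motor neuron replicate 1, 2 or 3, and to 7, all higher, without mutant replicate 3. Without mutant replicate 1 it was 28 higher and 18 lower, and without mutant replicate 2 it was 45 higher and 26 lower. At an unadjusted p below 0.05 there were 6 member probe sets (19.4%), beside 4117 on the array (15.2%). The 2 groups of arrays did not overlap for 9 members, 4 higher and 5 lower in the mutant (29%), against 22.3% of all probe sets (10.5% higher and 11.7% lower). The median log2 change was -0.05 for the members and -0.0073 for all. In simulated data of this comparison, 14% of genes changed by 1 on the log2 scale and 63% of those changed by 2 were recovered, so changes near 2-fold would mostly be missed with 3 arrays a group.

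The lowest p among the members was at Tardbp. Probe set 1455655_a_at read 1810, 1683 and 1789 in wild-type and 862, 807 and 882 in mutant motor neurons. These groups were far apart relative to their spread, at 2.05-fold lower in the mutant (log2 -1.03 ± 0.221, 95% interval -1.52 to -0.54, unadjusted p = 7.47e-04), but the adjusted p was 0.102. With all 9 arrays in 1 fit, where the cord arrays share in the estimate of the spread, it was called (log2 -1.03 ± 0.153, adjusted p = 0.00709), and its adjusted p ranged from 2.18e-05 to 0.472 over 17 alternatives. That fit called 572 higher and 612 lower of all probe sets. Its spread is not that of captured cells alone. Cord arrays correlated with each other at 0.976 to 0.983, wild-type motor neuron arrays at 0.935 to 0.960 and mutant ones at 0.931 to 0.958. The other 4 Tardbp probe sets had smaller differences of both signs. Probe set 1423723_s_at differed by -0.29 without overlap of the arrays (95% interval -0.60 to 0.023), and 1434419_s_at differed by -0.32 with overlap (-0.94 to 0.30). The brightest, 1436318_at, differed by 0.19 without overlap (-0.11 to 0.49), and 1428467_at by 0.33 with overlap (-0.25 to 0.92). Within arrays, 1436318_at minus 1455655_a_at was 1.22 higher in the mutant (two-sided exact permutation p = 0.1, the smallest possible). Between genotypes, 4 of the 22 member pairs did not overlap, this one included, beside 19.3% of 10188 such pairs over all genes. The log2 3′ to 5′ ratio of Gapdh was 0.463 higher in the mutant arrays (exact p = 0.2) and that of Actb 0.747 higher (exact p = 0.2), and their part in the Tardbp difference was not tested.

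Tia1 1431708_a_at had the largest difference between genotypes of any member. It read 143, 128 and 161 in the wild-type motor neurons, where 1 of 3 arrays was above background, and 295, 699 and 487 in mutant motor neurons, where all were. The mutant cells were 2.97-fold higher on the scale with the pseudocount (log2 1.57 ± 0.474, 95% interval 0.52 to 2.62, unadjusted p = 0.00718), and the adjusted p was 0.169. The fit of all 9 arrays called it (log2 1.57 ± 0.351, adjusted p = 0.0335), with a range of 2.04e-04 to 0.506 over 16 alternatives. That fit, in which the cord arrays share in the spread, called 572 higher and 612 lower of all probe sets. The cord arrays read 1045, 1161 and 1194, above both. The other 4 tested Tia1 probe sets differed by -0.05 to 0.22 between genotypes, and the arrays overlapped at each.

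**Figure D4:**
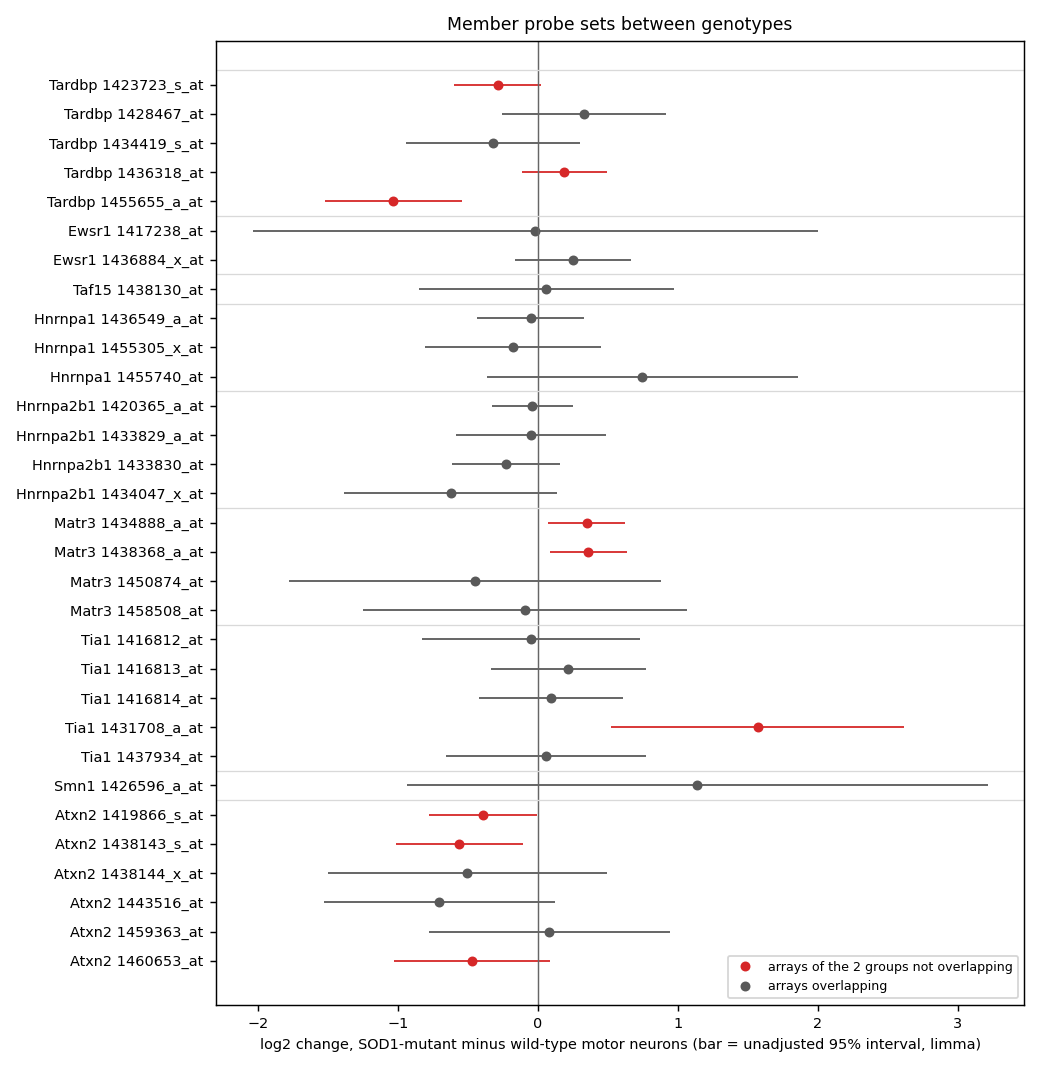
Log2 change of the 31 tested probe sets, mutant minus wild-type motor neurons (x axis), with unadjusted 95% intervals from limma. Red marks the 9 probe sets whose 3 mutant and 3 wild-type arrays did not overlap. No probe set passed the adjusted threshold, and the largest differences in each direction are -1.03 at Tardbp 1455655_a_at and 1.57 at Tia1 1431708_a_at.

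Some Matr3 and Atxn2 probe sets did not overlap between genotypes, but none passed the threshold. At the pair of bright Matr3 probe sets all mutant arrays lay above all wild-type arrays, 1438368_a_at by 0.36 (95% interval 0.089 to 0.64, adjusted p = 0.212) and 1434888_a_at by 0.35 (0.076 to 0.62, adjusted p = 0.225). The other Matr3 probe sets had the opposite sign and overlapped, 1450874_at at -0.45 (-1.78 to 0.88) and 1458508_at at -0.09 (-1.25 to 1.06). For Atxn2, 1438143_s_at read 16218, 8818 and 13449 against 19633, 18478 and 17018 in the wild type (log2 -0.56, -1.01 to -0.11, adjusted p = 0.24). Atxn2 1419866_s_at differed by -0.39 (adjusted p = 0.326) and Atxn2 1460653_at by -0.47 (adjusted p = 0.403), and the arrays did not overlap at either. The other 3 Atxn2 probe sets overlapped, with 1459363_at at 0.08, 1438144_x_at at -0.50 and 1443516_at at -0.70. For Ewsr1 1436884_x_at the difference was 0.25 (-0.17 to 0.66), for Hnrnpa1 1436549_a_at -0.05 (-0.43 to 0.33) and for Hnrnpa2b1 1420365_a_at -0.04 (-0.33 to 0.25). Dim probe sets set only wide limits, as for Taf15 1438130_at (-0.85 to 0.97), Ewsr1 1417238_at (-2.04 to 2.004) and Smn1 (1.14, -0.94 to 3.21).

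Marker genes of other cells were compared between the 2 motor neuron groups. The astrocyte list summed to 18252 to 25675 in wild-type and 44499 to 51809 in mutant motor neurons without overlap, and 1 of its 6 genes, Gja1, was called higher. The oligodendrocyte list did not overlap either (262921 to 280596 and 298216 to 327500). Sums overlapped for interneurons (20393 to 23145 and 18539 to 34501) and for vessels and meninges (5769 to 8445 and 6275 to 7537). No gene of these lists was called. Microglial markers summed to 3024 to 3462 in wild-type and 4088 to 4764 in mutant motor neurons, with none of the 6 genes called. Of these 6, 3 were above background on every wild-type and 4 on every mutant motor neuron array, and 1, Aif1, was below background on all of both groups. C1qa, a complement gene, had the largest difference of the list and read 19 to 275 in wild-type and 400 to 825 in mutant motor neurons (log2 2.82, adjusted p = 0.14). Only 1 of its 3 wild-type arrays was above background, so the size of that difference rests on values near the floor. P2ry12 went the other way (log2 -0.84), above background on 2 wild-type arrays and 1 mutant array, and Cx3cr1 was level (-0.01). Aif1, C1qb and Csf1r differed by 0.23, 0.26 and 0.52. The part of glial RNA in the member values was not tested. The Sod1 probe set 1451124_at read 96983 to 101398 in wild-type and 84714 to 131987 in mutant motor neurons (log2 0.144, adjusted p = 0.698), which does not check the genotype, since the allele is not named.

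Related genes, taken at each gene's brightest tested probe set, were read against all 12983 genes, of which 31.1% were called higher and 36.1% lower in the wild-type motor neurons than in cord with a median of -0.10. Among other hnRNP proteins 8 of 22 were higher and 6 lower (median -0.03). The largest changes were at a pair of splicing regulators. Ptbp2, the neuronal form, went from 2517 ± 414 in cord to 18672 ± 3290 in the wild-type motor neurons (SD, n = 3; log2 2.88, adjusted p = 1.43e-06), and Ptbp1, the form of non-neuronal cells, from 4824 ± 557 to 411 ± 90 (log2 -3.50, adjusted p = 1.38e-06). The other tested probe set of Ptbp2 was called lower, so its direction also differed between probe sets. Hnrnpl, another splicing regulator, was lower (log2 -2.69, adjusted p = 1.17e-05). Ptbp2 was at 34634 ± 4250 in mutant motor neurons, 1.86-fold above the wild type (adjusted p = 0.0618).

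Of stress granule and poly(A) proteins, 6 of 14 were higher and 4 lower (median 0.10). G3bp2 and Caprin1, partners in stress granule assembly, were higher (log2 1.46 and 1.13), though of the 6 tested Caprin1 probe sets 3 were called higher and 2 lower. The cold shock protein gene Ybx1 was lower (log2 -1.69, adjusted p = 2.22e-06). Neuronal RNA-binding proteins had 11 of 23 higher and 7 lower (median 0.35), with Celf2 (-2.42), Fmr1, the fragile X protein gene (-2.06), and Celf1 (-1.92) among the lower. The SMN complex had 1 of 6 higher, Strap (log2 1.68, adjusted p = 3.84e-06), and 3 lower, including Gemin8 (-1.11) and Ddx20 (-1.06), whose falls did not hold under the other scalings. Nuclear import genes, whose products carry proteins into the nucleus, had 9 of 12 higher and 2 lower (median 0.73), among them Ran at 1.46, with Tnpo2 (-1.73) and Ranbp1 (-1.32) lower.

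Among other RNA genes of motor neuron disease 3 of 8 were higher and 3 lower (median 0.13). Elp3, a subunit of Elongator, went from 3720 ± 267 in cord to 20877 ± 1790 in the wild-type motor neurons (log2 2.48, adjusted p = 3.36e-07). Ang, which encodes the ribonuclease angiogenin, read 1515 to 2150 in cord and was below background on all 3 wild-type arrays. Exosc3, a subunit of the RNA exosome, was lower (log2 -1.21, adjusted p = 0.00125), a call not held under all 3 scalings. It is named for its change in mutant motor neurons against cord (log2 -2.28). In the wild-type motor neurons, Ighmbp2 (log2 2.01) and Ascc1 (-1.39) of this list changed more than Exosc3. The list counts depended on scaling, and centring gave 17 higher and 2 lower for hnRNP, 11 and 2 for stress granule and poly(A), 16 and 3 for neuronal, 4 and 0 for SMN complex, 10 and 2 for nuclear import and 5 and 1 for the other disease genes. After quantile normalization they were 7 and 8, 7 and 5, 7 and 8, 3 and 0, 9 and 2, and 5 and 2. In mutant motor neurons against cord the 6 lists gave 10 and 7, 5 and 5, 13 and 7, 1 and 2, 7 and 2, and 3 and 3 in the order given here, beside 28.4% and 35.3% of all genes. None of their tested genes passed between genotypes (0.254% of all genes did).

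The genes whose brightest probe set ran most like Tardbp 1436318_at over log2 values of the 9 arrays were Adam23 (Pearson r = 0.9891), Usp15 (0.9886) and Atp6v1d (0.988), of 12982 genes ranked. Ewsr1 1436884_x_at followed it with 0.9455 at rank 754 and Matr3 1438368_a_at with 0.9291 at rank 1116, while Taf15 1438130_at ran opposite, at -0.9152. These 9 arrays are 3 groups of 3 that share the step from cord to captured cells, so the values describe that step and carry no p.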

How the data were processed

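The 9 arrays were of one Affymetrix mouse platform, and were grouped by the labels' descriptions and numbered as in the titles. The values are linear signal intensities deposited by the authors. Every array has the same trimmed mean (2499, leaving out the top and bottom 2%), so the authors had scaled them. For the software that made them, nothing is given in the sources used here.

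The 64 control probe sets among 45101 were set aside. Before taking log2, 20.3 (the 10th percentile over all arrays) was added as a pseudocount, so fold changes understate those of dim probe sets. Probe sets whose mean over the 3 groups' mean log2 values lay above the 40th percentile were tested. Each comparison was fitted on its own 6 arrays with limma 3.58.1 in R 4.3.3 (lmFit, eBayes with an intensity trend). P-values were adjusted by Benjamini-Hochberg over 27022 probe sets, with a threshold of 0.05. Single values were tested by two-sided exact permutation. Gene symbols come from the platform annotation, and a gene in a list is read at its brightest tested probe set. A probe set below background on all arrays of a group has only a bound there, set by each array's background level.

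The members and lists were chosen with earlier results of these data known. From each list up to 3 genes past the threshold are named, those with the largest change in any of the 3 comparisons. Their order in the comparison of wild-type motor neurons with cord can therefore differ. For Tardbp the 3 genes most correlated with it are named. Alternatives were 2 other scalings, the filter, the pseudocount, a floor at background, all 9 arrays in 1 fit, no trend, array weights, a replicate block and leaving out each array. In simulated data for the motor neuron against cord comparisons, 31% (wild type) and 34% (mutant) of log2 changes of 1 were recovered, and 75% and 80% of changes of 2. Only 200 of 27022 probe sets were changed there, whereas 65.5% and 62.1% were called in the real comparisons. The adjusted threshold is looser where many probe sets change, so these shares do not give the recovery in the real comparisons with cord.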

Additional observations from a re-analysis of the deposited data

How the results depend on the processing

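With the authors' scaling kept, leaving out 1 array at a time gave 7 to 8 higher and 17 to 20 lower member probe sets for wild-type motor neurons against cord, 0 to 0 in each direction between genotypes, and 4 to 8 higher and 17 to 21 lower for mutant motor neurons against cord. Over all probe sets those ranges were 5851 to 6726 higher and 9626 to 11662 lower for wild-type motor neurons against cord. Between genotypes they were 6 to 45 and 0 to 26, and for mutant motor neurons against cord 5096 to 6171 and 9159 to 11741. Pairs of probe sets that did not overlap numbered 14 to 16, 5 to 6 and 14 to 18 in that order. With all arrays they numbered 14, 4 and 14, beside 68.5%, 19.3% and 68.5% of such pairs over all genes. Leaving out an array cannot make separate groups overlap, so the counts of pairs could not fall. After centring, 12 rather than 21 member probe sets were lower in wild-type motor neurons than in cord, and 10 were higher and 12 lower in mutant motor neurons. Of all probe sets, centring called 12942 higher and 5269 lower in wild-type motor neurons (6494 and 11206 on the authors' scale). In mutant motor neurons it called 11599 and 5157 (5925 and 10859 on the authors' scale). A filter at the 60th percentile left 12 lower in the mutant, since only 23 members were then tested (7084 lower of all 18015). Between genotypes, 1 member probe set higher and 1 lower were called with all 9 arrays in 1 fit, beside 572 and 612 of all 27022. The same fit gave 7 higher and 17 lower for wild-type motor neurons against cord, 5 calls fewer (1 each of Tardbp, Hnrnpa1 and Atxn2 and 2 of Hnrnpa2b1). Of all probe sets it called 6098 higher and 10313 lower there. Between genotypes, array weights called 9 higher and 10 lower (6250 and 7527 of all probe sets), with most weight on 1 array of each group (10.8 for wild-type replicate 3 and 5.47 for mutant replicate 3). The weights did not converge for wild-type motor neurons against cord. With Actb in place of Gapdh the 3′ to 5′ ratio differed by 0.747 between genotypes and by 4.61 between mutant motor neurons and cord.

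Directions turned for these probe sets called in at least 1 of the settings compared, and the cause was not tested. Against cord in wild-type motor neurons, centring gave 0.28 for Hnrnpa1 1455305_x_at, 0.44, 0.40 and 0.40 for Hnrnpa2b1 1420365_a_at, 1433829_a_at and 1434047_x_at, 0.064 for Tia1 1437934_at and 0.21 for Atxn2 1459363_at. Quantile normalization gave -0.0087 and -0.12 for Matr3 1434888_a_at and 1438368_a_at, 0.036 for Tia1 1437934_at and 0.18 for Atxn2 1459363_at. In mutant motor neurons, centring gave 0.79 for Tardbp 1428467_at, 0.041 for Hnrnpa1 1455305_x_at, 0.34 for Hnrnpa2b1 1420365_a_at and 0.064 for Tia1 1437934_at, and quantile normalization 0.13 for the last. Between genotypes, array weights gave -0.79 for Atxn2 1459363_at. Values called in neither setting turned too. Centring gave 0.52 for Tardbp 1428467_at in wild-type motor neurons, and in the mutant 0.29 for Hnrnpa2b1 1433829_a_at, 0.32 for Atxn2 1443516_at and 0.23 for Atxn2 1459363_at. Quantile normalization gave, in the mutant, 0.065 for Tardbp 1428467_at and 0.33 and 0.24 for that pair of Atxn2 probe sets. Neither scaling turned a sign between genotypes.

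Same-numbered motor neuron arrays correlated at 0.145, 0.171 and 0.0023 in their deviations from the group means, and differently numbered ones at -0.185 to 0.0635. Whether same-numbered samples were prepared together is not in the labels and was not tested. With the replicate number as a block, 8 higher and 20 lower, 0 and 0, and 5 and 19 member probe sets were called in the 3 comparisons, and 226 higher and 217 lower of all probe sets between genotypes. Against cord the block gave 6338 higher and 10995 lower of all probe sets in wild-type motor neurons and 5697 and 10628 in mutant ones.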
